A study of Rattus norvegicus with 15 samples.

Results

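The chemokines and chemokine receptors of the rat gut lining were followed over stomach, colon, duodenum, ileum and jejunum. Members were all genes whose name in the scanner files is Ccl, Cxcl, Ccr or Cxcr with a number, or Cx3cl1, Cx3cr1 or Xcl1, each read from its brightest probe. This gave 43 genes, 30 ligands and 13 receptors, out of 35522 genes on the array. The mucosa came from Sprague Dawley male rats, except that the labels of ileum 3 give neither strain nor sex. Everted segments were treated with the protease pronase, and the cells set free were fractionated by elutriation, a sorting of cells by size in a counterflow. No animal was treated, and no age is given. Each segment had 3 independent isolations of total RNA, labelled with Cy3 or Cy5 by linear amplification and hybridised to Agilent whole genome arrays. The labels do not say that the isolations came from separate animals, so p-values measure the spread between these isolations.

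Chemokines are small secreted proteins that draw leukocytes along a gradient, and each acts through a few G protein coupled receptors carried mainly by those leukocytes. In the gut lining, some ligands are made steadily by the epithelium and help to place lymphocytes and plasma cells in a given region, whereas others are switched on by bacterial products, cytokines or injury. Because the samples are cell suspensions, an array level joins epithelial RNA with that of any leukocyte or stromal cell carried along, and fewer cells of a type cannot be told apart from less RNA per cell.

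Levels are given as log2 intensity relative to the sample's own 75th percentile over probes, so that a level of 0 is a probe at that percentile. Levels of different genes come from different probes and were not compared with each other. Differences come from limma, a linear model fitted to all 33641 genes tested (33632 in colon and over the 5 segments), with an adjusted p under 0.05 as the call. The median intensity of the 15 samples lay between 92.4 and 1048.4 units, and the share of probes well above background between 44.2% in ileum 1 and 97.1% in stomach 3. The scanner software set that background limit at a multiplier of 2.6 in stomach and 13 in duodenum, ileum and jejunum, and the colon files give none. Stomach, colon and ileum were each scanned on days of their own, so that for them the segment and the day of the scan cannot be told apart, whereas duodenum and jejunum shared arrays. Colon 1, colon 2 and colon 3 carried the same slide number, so colon cannot be told apart from its slide either. Colon 1 and colon 2 were the Cy3 and Cy5 channels of the same array. Atp4a, Muc5ac and Gkn1 had their highest mean in stomach, Car1 in colon, Si and Apoa4 in jejunum and Fabp6 in ileum. Slc26a3, also listed as a colon marker, had its highest mean in duodenum (2.95, against 2.85 in colon). The stomach markers Gkn1 and Tff1 had means of 4.23 and 2.98 in duodenum, against -0.09 and 0.14 in jejunum. The epithelial marker Epcam was well above background in all samples, with a mean level of 2.90 in stomach, 6.44 in colon, 5.98 in duodenum, 5.33 in ileum and 6.09 in jejunum. Krt8 was likewise lowest in stomach, with means of 2.95 in stomach, 5.54 in colon, 5.11 in duodenum, 5.03 in ileum and 5.51 in jejunum. Cdh1, a further epithelial marker, was not low in stomach. Its means were 5.55 in stomach, 5.88 in colon, 5.04 in duodenum, 4.5 in ileum and 5.47 in jejunum.

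All 43 genes passed the filter on dim probes, 9 of them through stomach alone (Ccl9, Ccl21b, Ccl24, Cxcl4, Cxcl5, Cxcl14, Ccr1, Ccr2 and Cxcr3). Over the 5 segments 20 of the 43 were called, which is 46.5% against 42.1% of all genes tested, so the share of the family that varied was near that of the array as a whole. Among the 30 ligands 17 were called, and among the 13 receptors 3. Against the small bowel, taken as the mean of duodenum, ileum and jejunum, stomach had 4 members higher and 8 lower, or 27.9% against 27.3% of all genes. The 4 higher members include Cxcl14, which passed the filter only through stomach, where it was high. Colon had 8 higher and 11 lower, or 44.2% against 25.7% of all genes. Between duodenum and jejunum 3 members were higher and 0 lower in duodenum, or 6.98% against 0.55% of all genes. Ileum had 1 higher and 1 lower than jejunum, or 4.65% against 4.2% of all genes, of which 1.46% were higher and 2.74% lower. The median difference over the members was 0.29 in stomach against 0.28 over all genes, and -0.08 in colon against 0.00 over all genes. For duodenum it was -0.22 against -0.02 over all genes, and for ileum 0.16 against 0.10. A single segment had the highest level, against each of the other 4, for 7 members, or 16.3% against 7.63% of all genes, and these were Ccl6, Ccl28, Cxcl1, Cxcl10 and Cxcl11 in colon and Cxcl12 and Cxcl14 in stomach, of which Cxcl14 had passed the filter through stomach alone. Of all genes, 3.94% were highest in stomach, 3.42% in colon, 0.0595% in duodenum, 0.175% in ileum and 0.0446% in jejunum.

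**Figure D1:**
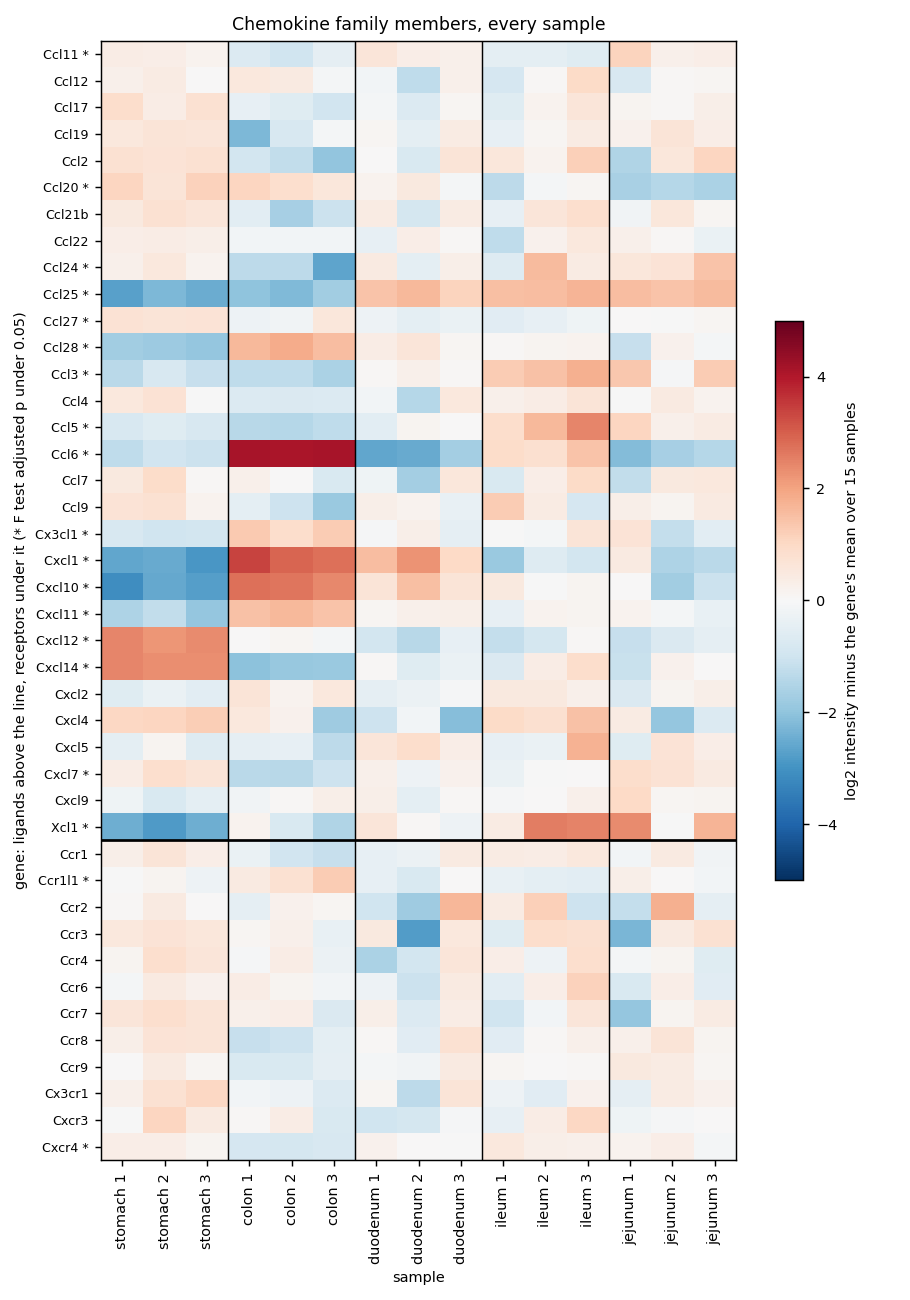
Members in every sample: rows are genes, columns the 15 samples, and the colour is log2 intensity minus the gene's mean over the samples. Colour blocks by segment stand out among ligands such as Ccl6, Ccl25, Cxcl1, Cxcl10 and Cxcl12, and the receptors under the line are paler.

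Ccl25, the ligand of Ccr9 that small bowel epithelium makes and that draws gut homing lymphocytes, was a small bowel gene. It had levels of -2.23, -1.78 and -2.01 in stomach, -1.55, -1.74 and -1.25 in colon, 1.89, 2.10 and 1.61 in duodenum, 1.97, 2.02 and 2.16 in ileum and 2.04, 1.91 and 2.08 in jejunum. All 9 small bowel samples lay above all stomach and colon samples. Ccl25 was 15.8-fold lower in stomach than in the small bowel (log2 difference -3.98 ± 0.20, SE, adjusted p = 1.52e-10) and 11.3-fold lower in colon (-3.50 ± 0.25, adjusted p = 7.16e-08). Duodenum and jejunum differed by -0.15 (adjusted p = 0.967), ileum and jejunum by 0.05 (adjusted p = 0.929), and stomach and colon by -0.48 (adjusted p = 0.192). The probe reads chr12:1432141-1432292 on the minus strand of rn4, a span of 152 bases that is longer than the probe:
Ccl25 A_42_P792971: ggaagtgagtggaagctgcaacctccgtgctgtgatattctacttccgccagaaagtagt

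Ccl28, a mucosal epithelial ligand of Ccr10 and Ccr3 that attracts plasma cells making IgA, had a different order. Its levels were -0.45, -0.53 and -0.65 in stomach, 2.91, 3.15 and 2.84 in colon, 1.65, 1.87 and 1.37 in duodenum, 1.36, 1.44 and 1.46 in ileum and 0.15, 1.52 and 1.18 in jejunum. Colon was the highest segment and stomach the lowest, with no overlap of either with the small bowel. Ccl28 was 3.04-fold higher in colon than in the small bowel (1.61 ± 0.34, adjusted p = 0.00225) and 3.67-fold lower in stomach (-1.87 ± 0.27, adjusted p = 4.57e-05). None of the pairs within the small bowel was called, and jejunum 1, at 0.15, lay below the other 8 samples there.

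Ccl6, a CC ligand of rodents that acts on macrophages through Ccr1 in the mouse, showed the largest difference of the family between colon and the small bowel. It had levels of -0.57, -0.28 and -0.40 in stomach, 4.81, 4.75 and 4.79 in colon, -1.93, -1.85 and -1.03 in duodenum, 1.60, 1.49 and 2.11 in ileum and -1.49, -0.99 and -0.76 in jejunum. The colon samples lay close together and above all others, and the ileum samples lay above those of stomach, duodenum and jejunum. Ccl6 was 32.3-fold higher in colon than in the small bowel (5.01 ± 0.28, adjusted p = 4.87e-09). Within the small bowel it was 7.47-fold higher in ileum than in jejunum (2.90 ± 0.27, adjusted p = 2.29e-05). The stomach level did not pass the test against the small bowel mean (-0.10, adjusted p = 0.778), a mean that joins the high ileum with the low duodenum and jejunum. Its probe maps to chr10:71660234-71660293 on the minus strand of rn4:
Ccl6 A_43_P16707: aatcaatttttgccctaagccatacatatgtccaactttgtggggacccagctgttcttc

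Ccl20, which calls cells with Ccr6 to the epithelium over lymphoid follicles, was lowest in jejunum. The levels were 1.30, 0.89 and 1.39 in stomach, 1.33, 1.11 and 0.80 in colon, 0.44, 0.75 and 0.17 in duodenum, -1.07, 0.16 and 0.35 in ileum and -1.37, -1.19 and -1.34 in jejunum. Stomach and colon overlapped each other and lay above the 9 small bowel samples, while duodenum lay above jejunum with no overlap. Ccl20 was 2.91-fold higher in stomach (1.54 ± 0.28, adjusted p = 0.000483) and 2.72-fold higher in colon (1.44 ± 0.35, adjusted p = 0.00648) than in the small bowel. It was 3.41-fold higher in duodenum than in jejunum (1.77 ± 0.28, adjusted p = 0.00477), and the ileum to jejunum difference of 1.09 did not pass (adjusted p = 0.0791).

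Ccl27, a Ccr10 ligand best known from skin, had levels of 0.45, 0.36 and 0.39 in stomach, -0.52, -0.46 and 0.30 in colon, -0.55, -0.78 and -0.61 in duodenum, -0.85, -0.68 and -0.50 in ileum and -0.27, -0.31 and -0.19 in jejunum. The stomach samples lay above all others, colon 3 being the nearest. Ccl27 was 1.90-fold higher in stomach than in the small bowel (0.92 ± 0.23, adjusted p = 0.00506). Cx3cl1, the membrane-bound ligand of Cx3cr1, had levels of 1.95, 1.73 and 1.83 in stomach, 4.06, 3.63 and 3.99 in colon, 2.70, 3.03 and 2.27 in duodenum, 2.70, 2.63 and 3.39 in ileum and 3.44, 1.53 and 2.21 in jejunum. Its colon samples lay above those of the other segments by this probe, and the difference from the small bowel was 2.45-fold (1.29 ± 0.37, adjusted p = 0.0179).

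**Figure D2:**
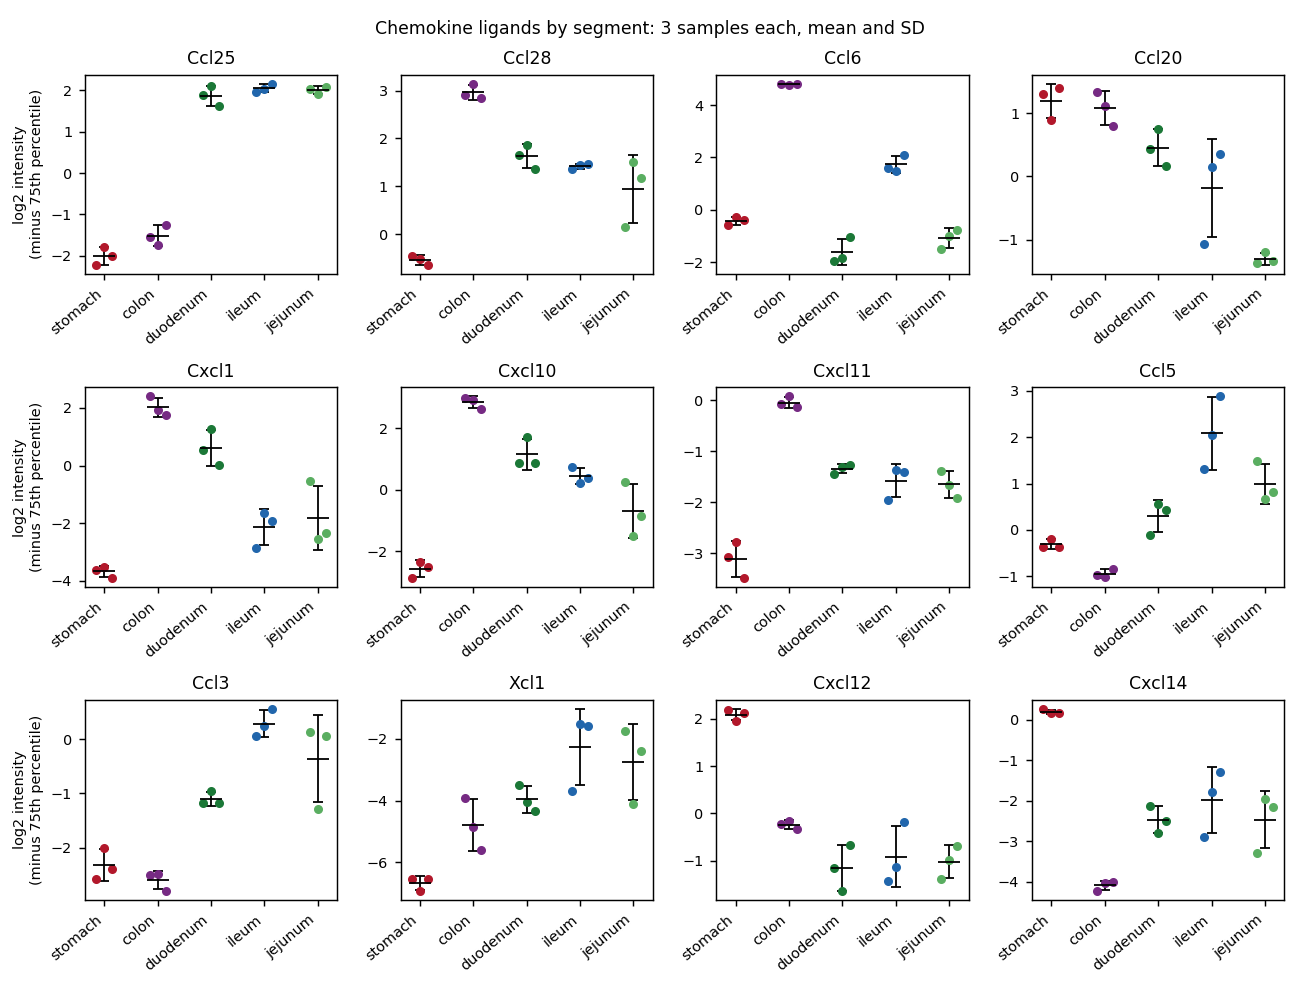
Level of 12 ligands in each of the 15 samples (points) with the segment mean and SD (bars, n = 3), as log2 intensity minus the sample's 75th percentile. Ccl25 is high in the small bowel alone, Ccl6, Ccl28, Cxcl1, Cxcl10 and Cxcl11 peak in colon, and Cxcl12 and Cxcl14 peak in stomach.

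Among the inflammatory ligands, Cxcl1, which recruits neutrophils through Cxcr2, had the widest spread between stomach and colon. Its levels were -3.61, -3.50 and -3.90 in stomach, 2.40, 1.93 and 1.74 in colon, 0.54, 1.27 and 0.02 in duodenum, -2.84, -1.65 and -1.91 in ileum and -0.54, -2.54 and -2.35 in jejunum. Colon and duodenum lay above the other segments, stomach lay below every other sample, and jejunum 1 stood above the other jejunum samples. Cxcl1 was 9.66-fold higher in colon than in the small bowel (3.27 ± 0.45, adjusted p = 5.57e-05), 5.89-fold lower in stomach (-2.56 ± 0.36, adjusted p = 3.39e-05) and 5.88-fold higher in duodenum than in jejunum (2.56 ± 0.35, adjusted p = 0.00135). Its neighbour on the chromosome Cxcl2, with a like role, was not called over the 5 segments (adjusted p = 0.0696), with means of -1.24 in stomach, -0.31 in colon, -1.01 in duodenum, -0.35 in ileum and -0.86 in jejunum.

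Cxcl10, an interferon induced ligand of Cxcr3 on activated T cells, had levels of -2.86, -2.33 and -2.51 in stomach, 2.99, 2.92 and 2.63 in colon, 0.87, 1.73 and 0.86 in duodenum, 0.74, 0.22 and 0.38 in ileum and 0.26, -1.50 and -0.84 in jejunum. Colon was above and stomach below all other samples. Cxcl10 was 5.83-fold higher in colon (2.54 ± 0.37, adjusted p = 0.000102) and 7.31-fold lower in stomach (-2.87 ± 0.30, adjusted p = 1.1e-06) than in the small bowel, and 3.59-fold higher in duodenum than in jejunum (1.84 ± 0.29, adjusted p = 0.00495). Cxcl11, which shares the receptor Cxcr3, had levels of -3.08, -2.78 and -3.48 in stomach, -0.07, 0.08 and -0.14 in colon, -1.44, -1.31 and -1.27 in duodenum, -1.95, -1.36 and -1.41 in ileum and -1.38, -1.65 and -1.91 in jejunum. The order at its ends was that of Cxcl10, with colon 2.88-fold higher (1.53 ± 0.30, adjusted p = 0.00145) and stomach 3.02-fold lower (-1.59 ± 0.24, adjusted p = 8e-05), while duodenum and jejunum did not pass the test (adjusted p = 0.771). Cxcl9, the remaining Cxcr3 ligand, was not called over the segments (adjusted p = 0.316). The 3 probes lie near each other, at chr14:17252192-17252251 for Cxcl11, chr14:17267994-17268053 for Cxcl10 and chr14:17288831-17288890 for Cxcl9 in rn4.

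Cxcl1, Cxcl10 and Ccl20 were the 3 members called between duodenum and jejunum. Those segments shared arrays, and the difference within each shared array was 2.90, 1.80 and 2.55 for Cxcl1. For Cxcl10 it was 1.72, 1.47 and 2.36, and for Ccl20 1.78, 2.12 and 1.35. Duodenum was higher on 3 of 3 arrays for each gene, in values from which the dye difference was not removed. The genes were picked by their calls in these same samples, so this adds no further support. None of the 3 calls remained with the replicate number as a block. With jejunum 3 left out none of these calls remained, with duodenum 1 left out 1 call remained in this comparison, and with jejunum 2 left out there were 5. The Cxcl10 call was lost with no array block (adjusted p = 0.0847), and with normexp Cxcl1 differed by 1.92.

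The start regions of these 3 genes are shown with that of Cxcl2 because they were called together between duodenum and jejunum and Cxcl2 was not. They come from RefSeq (build GRCr8) and hold 250 bases before and 50 after the gene start, and 32 of the 43 members had such an entry. Capitals mark matches on either strand to GGG, any 2 bases and TTTCC, a form of the NF-kB motif, or to GAAA, any 2 bases and GAAA, a form of the interferon response motif. The NF-kB form was found in 1.51% and the interferon form in 3.77% of 27457 promoters of 300 bases. The NF-kB form occurred in 6 of the 32 member promoters (Ccl9, Ccl20, Ccr3, Cxcl1, Cxcl2 and Cxcl5) and the interferon form in 2 (Ccl19 and Cxcl10). A match is a run of letters and no evidence of binding. The windows are chr14:17479272-17479571 on the minus strand for Cxcl1, chr14:17467206-17467505 on the minus strand for Cxcl2, chr9:91836909-91837208 on the plus strand for Ccl20 and chr14:15988816-15989115 on the plus strand for Cxcl10.
Cxcl1: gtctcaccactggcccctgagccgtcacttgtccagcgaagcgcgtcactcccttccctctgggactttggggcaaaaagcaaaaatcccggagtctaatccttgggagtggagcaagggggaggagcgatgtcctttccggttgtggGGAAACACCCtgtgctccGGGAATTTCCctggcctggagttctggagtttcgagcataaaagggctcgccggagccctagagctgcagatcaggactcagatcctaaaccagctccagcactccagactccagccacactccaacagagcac
Cxcl2: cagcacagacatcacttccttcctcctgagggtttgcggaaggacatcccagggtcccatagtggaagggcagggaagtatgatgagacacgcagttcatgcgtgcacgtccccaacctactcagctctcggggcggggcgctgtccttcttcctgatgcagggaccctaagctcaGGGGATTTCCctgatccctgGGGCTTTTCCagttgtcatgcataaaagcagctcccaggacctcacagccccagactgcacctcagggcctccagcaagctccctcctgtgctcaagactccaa
Ccl20: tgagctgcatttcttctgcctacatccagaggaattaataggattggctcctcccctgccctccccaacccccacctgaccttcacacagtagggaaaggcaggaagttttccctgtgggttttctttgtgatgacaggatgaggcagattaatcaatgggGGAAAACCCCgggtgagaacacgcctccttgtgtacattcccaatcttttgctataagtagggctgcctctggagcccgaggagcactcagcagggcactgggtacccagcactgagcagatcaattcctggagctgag
Cxcl10: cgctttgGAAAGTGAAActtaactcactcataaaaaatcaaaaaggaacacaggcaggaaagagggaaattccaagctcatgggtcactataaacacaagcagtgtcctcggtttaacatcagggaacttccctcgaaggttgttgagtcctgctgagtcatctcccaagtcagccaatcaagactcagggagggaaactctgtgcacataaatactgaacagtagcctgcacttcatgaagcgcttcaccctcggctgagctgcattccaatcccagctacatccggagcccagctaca
Cxcl1 and Cxcl2 hold 2 NF-kB matches each, and Ccl20 holds 1 on the minus strand. Cxcl10 holds no match to this form, but other forms of the NF-kB motif were not searched.

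Genes that respond to cell handling were higher in colon and lower in stomach, as Cxcl1 and Cxcl10 were. For this and the later gene lists, the shares of all genes were 12.6% higher and 13.2% lower in colon. In stomach they were 15.5% higher and 11.8% lower. Of 22 immediate early and stress genes, 17 were higher and 0 lower in colon than in the small bowel, and 1 was higher and 16 lower in stomach. Between ileum and jejunum 1 was higher and 4 were lower in ileum, where Cxcl10 differed by 1.14 (adjusted p = 0.0795) and Cxcl1 by -0.47 (adjusted p = 0.577). Their summed level (log2) was 6.53 to 6.78 in stomach, 9.62 to 9.92 in colon, 8.75 to 9.06 in duodenum, 7.46 to 7.89 in ileum and 8.08 to 9.31 in jejunum. Egr2 was 11.5-fold higher in colon (3.53 ± 0.39, adjusted p = 7.41e-06) and 7.94-fold lower in stomach (-2.99 ± 0.31, adjusted p = 1.37e-06), and it was the 1 gene of that list higher in duodenum than in jejunum (4.24-fold, adjusted p = 0.00304). Of 19 other NF-kB inducible genes, 4 were higher and 2 lower in colon, and 3 were higher and 4 lower in stomach. Of 17 other interferon inducible genes, 2 were higher and 7 lower in colon, and 3 were higher and 9 lower in stomach. Psmb8, a subunit of the immunoproteasome, was 18.6-fold lower in stomach (adjusted p = 1.07e-09) and 4.20-fold lower in colon (adjusted p = 0.00013). The part of cell handling in the chemokine levels was not tested. With normexp the stomach difference was -1.62 for Cxcl1 and -2.18 for Cxcl10, and both passed.

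**Figure D3:**
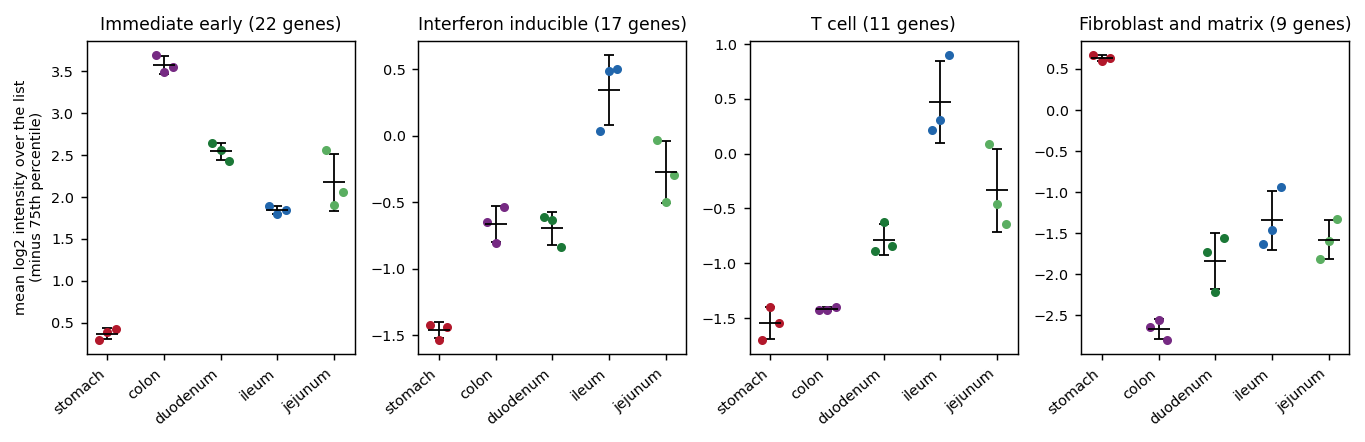
Mean log2 intensity (minus the sample's 75th percentile) over 4 gene lists in each of the 15 samples (points), with the segment mean and SD (bars, n = 3). The immediate early list is highest in colon and lowest in stomach, the T cell list is highest in ileum, and the fibroblast list is highest in stomach.

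Ccl5, Ccl3 and Xcl1, ligands that lymphocytes make, had their highest segment mean in ileum, but their differences from jejunum did not pass (adjusted p = 0.0721 for Ccl5, 0.276 for Ccl3 and 0.808 for Xcl1). Ccl5, a ligand made by T cells, had levels of -0.37, -0.19 and -0.37 in stomach, -0.97, -1.02 and -0.84 in colon, -0.10, 0.55 and 0.42 in duodenum, 1.30, 2.06 and 2.88 in ileum and 1.48, 0.66 and 0.82 in jejunum. Colon lay below every other sample, and the ileum samples lay above those of stomach, colon and duodenum. Ccl5 was 4.26-fold lower in colon (-2.09 ± 0.35, adjusted p = 0.000393) and 2.69-fold lower in stomach (-1.43 ± 0.28, adjusted p = 0.000965) than in the small bowel. Ccl3, a ligand of macrophages and T cells, had levels of -2.57, -2.00 and -2.38 in stomach, -2.50, -2.49 and -2.79 in colon, -1.17, -0.95 and -1.17 in duodenum, 0.06, 0.24 and 0.55 in ileum and 0.14, -1.28 and 0.06 in jejunum. Stomach and colon overlapped each other below the small bowel, by 3.79-fold in stomach (-1.92 ± 0.29, adjusted p = 9.06e-05) and 4.76-fold in colon (-2.25 ± 0.37, adjusted p = 0.000308). With normexp the colon difference of Ccl3 was -1.04 and passed.

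Xcl1, a product of CD8 T cells and NK cells, had levels of -6.55, -6.92 and -6.55 in stomach, -3.92, -4.85 and -5.60 in colon, -3.50, -4.04 and -4.34 in duodenum, -3.69, -1.53 and -1.60 in ileum and -1.74, -4.12 and -2.39 in jejunum. It was not well above background in any stomach or colon sample, and was so in 2 of 3 duodenum, 2 of 3 ileum and 3 of 3 jejunum samples. The fitted difference of Xcl1 between stomach and the small bowel was -3.68 (adjusted p = 8.52e-05), and -1.27 with another background correction (normexp). With the lowest signal well above background in place of the dim probe, its level was 7.05-fold lower in stomach. That figure was not tested and does not hold as a bound with normexp. T cell markers were counted beside these ligands. Of 11 such markers 4 were lower and 0 higher in stomach, 5 were lower and 0 higher in colon, and 2 were higher in ileum than in jejunum. Their summed level (log2) was 3.16 to 3.22 in stomach, 3.39 to 3.48 in colon, 3.83 to 4.32 in duodenum, 4.74 to 5.71 in ileum and 4.27 to 5.27 in jejunum. Cd3g was 13.1-fold lower in stomach (adjusted p = 2.39e-09) and 6.43-fold lower in colon (adjusted p = 5.53e-06), and Cd3d, Cd3e, Cd3g and Cd8a were each well above background in at least 1 sample of each segment. Cd3d and Cd3e varied less outside ileum. Cd3d had means of 0.97 in stomach, 1.03 in colon, 1.18 in duodenum, 1.93 in ileum and 1.54 in jejunum. Those of Cd3e were -4.4 in stomach, -4.93 in colon, -4.61 in duodenum, -2.07 in ileum and -4.45 in jejunum. Whether the number of T cells set the levels of Ccl3, Ccl5 and Xcl1 was not tested.

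Cxcl12, a ligand of Cxcr4 and Ackr3 made mainly by stromal cells, was highest in stomach. Its levels were 2.18, 1.95 and 2.11 in stomach, -0.22, -0.15 and -0.33 in colon, -1.15, -1.63 and -0.66 in duodenum, -1.43, -1.12 and -0.19 in ileum and -1.39, -0.97 and -0.70 in jejunum. Stomach lay above all other samples, by 8.61-fold over the small bowel (3.11 ± 0.27, adjusted p = 1.42e-07). Cxcl14, a ligand of epithelium and stroma, had levels of 0.26, 0.16 and 0.16 in stomach, -4.23, -4.05 and -4.01 in colon, -2.12, -2.79 and -2.51 in duodenum, -2.89, -1.79 and -1.29 in ileum and -3.29, -1.97 and -2.16 in jejunum. It was well above background in all stomach samples and in 2 of 3 samples of each other segment. Cxcl14 thus passed the filter through stomach, the segment where it was high, so its stomach difference of 2.50 ± 0.35 is given as a description. It was 3.47-fold lower in colon than in the small bowel (-1.80 ± 0.44, adjusted p = 0.00631). With normexp the stomach difference of Cxcl14 was 1.75, and its colon difference was -0.28 and did not pass.

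Most stromal markers were higher in stomach, as Cxcl12 was, but not in colon, where the Cxcl12 difference was 0.75 (adjusted p = 0.112). Of 9 fibroblast and matrix genes 6 were higher and 0 lower in stomach, and 0 were higher and 5 lower in colon. Their summed level (log2) was 6.03 to 6.39 in stomach, 1.81 to 2.04 in colon, 1.82 to 2.46 in duodenum, 2.41 to 2.75 in ileum and 2.51 to 3 in jejunum. Dcn was 151-fold higher in stomach (7.24 ± 0.24, adjusted p = 1.45e-12), and Pdgfra was well above background in 1 of 3 colon samples. Col1a1 was not highest in stomach, with means of 1.53 in stomach, 1.37 in colon, 1.02 in duodenum, 0.44 in ileum and 1.78 in jejunum. Of 8 endothelial genes 6 were higher in stomach and 0 lower. Pecam1 among them had a mean of -2.89 in stomach and -2.9 in ileum. The part of stromal cells in these levels was not tested.

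Cxcl12, Cx3cl1 and Cxcr4 had a second probe, and both sequences are shown for each because the probes of a gene did not always give the same call. The pairs map in rn4 to chr4:153516205-153516264 and chr4:153510217-153510276 on the plus strand for Cxcl12, chr19:10667029-10667088 and chr19:10667691-10667750 on the minus strand for Cx3cl1, and chr13:41308900-41308959 and chr13:41309106-41309165 on the minus strand for Cxcr4.
Cxcl12 A_44_P337351: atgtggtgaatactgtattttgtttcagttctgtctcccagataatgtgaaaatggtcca
Cxcl12 A_44_P1034439: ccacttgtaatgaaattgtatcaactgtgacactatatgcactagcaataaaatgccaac
Cx3cl1 A_44_P116591: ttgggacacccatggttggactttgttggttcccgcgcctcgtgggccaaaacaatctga
Cx3cl1 A_44_P116597: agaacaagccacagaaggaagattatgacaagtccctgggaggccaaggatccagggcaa
Cxcr4 A_44_P425580: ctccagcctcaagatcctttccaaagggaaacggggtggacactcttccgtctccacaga
Cxcr4 A_43_P12159: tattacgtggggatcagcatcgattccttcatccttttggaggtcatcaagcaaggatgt
The Cxcl12 probes carry different transcript accessions and gave the same direction in stomach, the second by 4.66 (adjusted p = 1.41e-07). In colon the second Cxcl12 probe was higher than in the small bowel by 1.73 (adjusted p = 0.0181), and the first differed by 0.75 (adjusted p = 0.111). The second Cx3cl1 probe differed by -0.29 in colon (adjusted p = 0.544), against 1.29 for the first, whose call was also lost without colon 1 (adjusted p = 0.0661) or colon 3 (adjusted p = 0.0584). For Cxcr4 the second probe differed by 0.16 in colon (adjusted p = 0.749) and was higher in ileum than in jejunum by 1.40 (adjusted p = 0.0174).

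**Figure D4:**
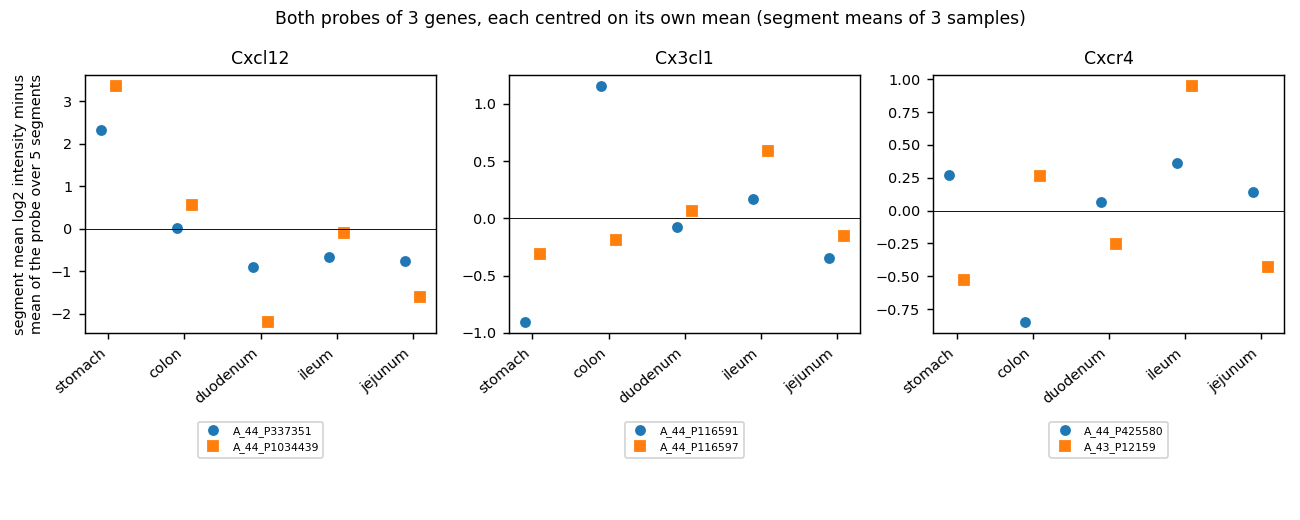
Segment means (n = 3) of both probes of 3 genes, as log2 intensity minus the probe's own mean over the 5 segments. The Cxcl12 probes are both highest in stomach, and the Cx3cl1 and Cxcr4 probes part in colon.

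The eotaxins, which call eosinophils through Ccr3, and the monocyte ligand Ccl2 were lower in colon. Ccl11 had levels of 0.98, 0.96 and 0.78 in stomach, -0.08, -0.36 and 0.19 in colon, 1.21, 0.94 and 0.87 in duodenum, 0.15, 0.12 and 0.03 in ileum and 1.75, 0.87 and 0.94 in jejunum. Ileum lay below duodenum and jejunum, and colon overlapped the small bowel. Ccl11 was 2.23-fold lower in ileum than in jejunum (-1.16 ± 0.27, adjusted p = 0.0227) and 1.71-fold lower in colon than in the small bowel (-0.77 ± 0.27, adjusted p = 0.0469). The ileum call was lost without ileum 1, ileum 2, ileum 3 or jejunum 1, and with no intensity trend. It was also lost with duodenum 2, jejunum 1 and ileum 1 left out together. Ccl24 had levels of -2.82, -2.53 and -2.90 in stomach, -4.38, -4.38 and -5.69 in colon, -2.60, -3.55 and -2.76 in duodenum, -3.72, -1.50 and -2.67 in ileum and -2.49, -2.39 and -1.64 in jejunum. It was 4.51-fold lower in colon (-2.17 ± 0.57, adjusted p = 0.01), where 1 of 3 samples was well above background, and with normexp the difference was -0.15 and did not pass. Ccl2, which acts through Ccr2, had levels of -0.89, -0.97 and -0.87 in stomach, -2.58, -2.86 and -3.62 in colon, -1.64, -2.42 and -0.99 in duodenum, -1.09, -1.45 and -0.44 in ileum and -3.14, -1.07 and -0.56 in jejunum. Colon overlapped the small bowel through jejunum 1, and the difference was -1.68 ± 0.56 (adjusted p = 0.0347). Over the 5 segments Ccl2 was not called (F test, adjusted p = 0.058). With normexp the colon difference of Ccl2 was -0.88 and passed. Its call was lost without stomach 1 or 2, duodenum 2 or 3, jejunum 2 or 3, or colon 3 (adjusted p = 0.0505 to 0.109). The colon call of Ccl11 was lost without any 1 stomach or ileum sample, duodenum 1 or 3, or colon 1 or 2 (adjusted p = 0.0504 to 0.171), and also with no intensity trend or no filter. Cxcl7, listed by RefSeq as the platelet gene Ppbp, had levels of -0.73, -0.28 and -0.47 in stomach, -2.47, -2.51 and -2.16 in colon, -0.87, -1.35 and -0.92 in duodenum, -1.43, -1.11 and -1.09 in ileum and -0.23, -0.41 and -0.67 in jejunum. All 3 colon samples lay below all others, by 2.72-fold against the small bowel (-1.44 ± 0.29, adjusted p = 0.00168), a difference that was -0.73 with normexp. The other 12 ligands (Ccl4, Ccl7, Ccl9, Ccl12, Ccl17, Ccl19, Ccl21b, Ccl22, Cxcl2, Cxcl4, Cxcl5 and Cxcl9) passed neither the test over the segments nor any of the 4 comparisons.

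Of the 13 receptors, none was called between stomach and the small bowel (1 at an unadjusted p under 0.05), between duodenum and jejunum (0) or between ileum and jejunum (0). The shares of all genes called in these comparisons were 27.3%, 0.55% and 4.2%. In colon 1 receptor was higher and 3 lower than in the small bowel, or 30.8% against 25.7% of all genes. Among the receptors 5 were well above background in every sample.

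Ccr9, the receptor of Ccl25, had levels of 0.00, 0.41 and 0.07 in stomach, -0.79, -0.79 and -0.47 in colon, -0.13, -0.20 and 0.42 in duodenum, 0.08, -0.03 and 0.03 in ileum and 0.46, 0.38 and 0.07 in jejunum. Its colon samples lay below all others, by 1.74-fold against the small bowel (-0.80 ± 0.27, adjusted p = 0.0356), and the stomach difference was 0.04 (adjusted p = 0.915) although Ccl25 was 15.8-fold lower there. Over the segments Ccr9 was not called (F test, adjusted p = 0.101). The colon call of Ccr9 was lost without stomach 1 or 3, duodenum 3, jejunum 2, or colon 1 or 2 (adjusted p = 0.0515 to 0.134), and with no intensity trend. Cxcr4, the receptor of Cxcl12, had levels of 0.14, 0.15 and -0.06 in stomach, -1.05, -1.06 and -1.01 in colon, 0.02, -0.19 and -0.21 in duodenum, 0.34, 0.11 and 0.05 in ileum and -0.01, 0.15 and -0.29 in jejunum. Colon was below every other sample, by 1.96-fold (-0.97 ± 0.23, adjusted p = 0.00567). Ccr1l1, a receptor close to Ccr1, had levels of 1.13, 1.30 and 0.89 in stomach, 1.62, 1.92 and 2.44 in colon, 0.73, 0.42 and 1.16 in duodenum, 0.79, 0.68 and 0.64 in ileum and 1.45, 1.20 and 1.04 in jejunum. It was 2.12-fold higher in colon (1.08 ± 0.30, adjusted p = 0.0137), a difference that was 0.02 with the normexp background correction, was not called with quantile normalization and was not called without colon 3 (adjusted p = 0.0623).

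The receptors of some other called ligands did not pass the test. Cxcr3, the receptor of Cxcl10 and Cxcl11, differed by -0.01 in colon (adjusted p = 0.991) and 0.63 in stomach (adjusted p = 0.278). Ccr6, the receptor of Ccl20, differed by 0.30 in colon (adjusted p = 0.691) and 0.29 in stomach (adjusted p = 0.62). Ccr1, which Ccl6 acts on in the mouse, differed by -0.88 in colon (adjusted p = 0.108) and 0.29 in stomach (adjusted p = 0.523). Ccr10, for Ccl28, and Cxcr2, for Cxcl1, carry other names in the files and were read as companion genes. They differed by 0.17 (adjusted p = 0.813) and 0.39 (adjusted p = 0.713) in colon. A miss of the threshold does not show equal levels, and the SE of these colon differences was 0.52 for Cxcr3 and 0.49 for Ccr6. Dim signal is a further limit. Cxcr3 and Ccr1 were each well above background in 10 of 15 samples, and Ccr6 in 12. In colon Ccr1 was so in 1 of 3 samples.

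**Figure D5:**
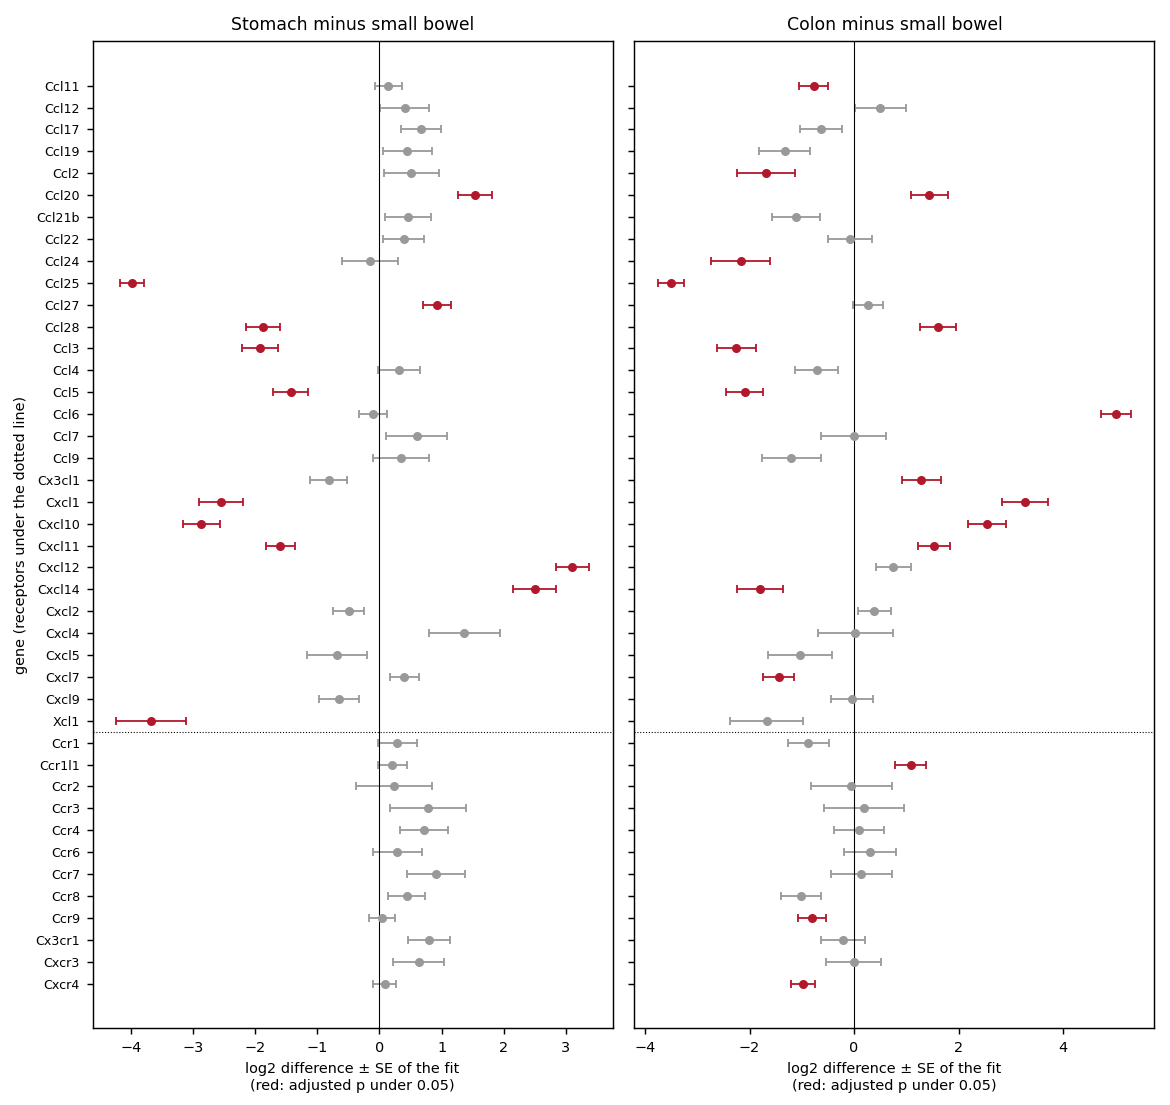
Difference of members from the mean of the small bowel, in stomach (left) and colon (right), in log2 units with the SE of the fit; red marks an adjusted p under 0.05. Cxcl1, Cxcl10, Cxcl11 and Ccl28 lie left of 0 in stomach and right of 0 in colon, and Ccl25 lies left of 0 in both.

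Of 15 further chemokine system genes that the files list under other names, 2 were higher and 1 lower in stomach, 1 higher and 1 lower in colon, 1 higher in ileum than in jejunum, and 0 changed between duodenum and jejunum. Cxcl17, a mucosal ligand of macrophages and dendritic cells, was 23.3-fold higher in stomach than in the small bowel (4.54 ± 0.37, adjusted p = 6.36e-08). Ackr3, the scavenging receptor of Cxcl12, was 1.70-fold higher in stomach (adjusted p = 0.0285) and 1.86-fold lower in colon (adjusted p = 0.0431). Cxcl13, the B cell ligand of lymphoid follicles, was 9.15-fold higher in ileum than in jejunum (3.19 ± 0.48, adjusted p = 0.00164). Mif, a cytokine that also binds chemokine receptors, was 2.72-fold higher in colon (adjusted p = 0.00548).

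Of 24 genes of receptor signalling, 3 were higher and 7 lower in stomach than in the small bowel, 3 were higher and 2 lower in colon, 1 was lower in duodenum than in jejunum and 2 were higher in ileum than in jejunum. Markers of other cells the suspensions could hold were counted in the same way. Of 10 macrophage and dendritic cell markers, 1 was higher and 2 lower in stomach, 1 was higher and 3 lower in colon, 1 was lower in duodenum and 3 were higher in ileum. Of 6 B cell markers, 1 was higher in stomach and 1 lower in colon. Of 5 neutrophil markers 1 was higher in stomach. None of 5 mast cell markers passed in limma, and Fcer1a came nearest (adjusted p = 0.0633 in colon). Of 7 epithelial markers, 1 was higher and 4 lower in stomach, 3 were higher in colon and 1 was higher in ileum. The part of these cells in the chemokine levels was not tested.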

How the data were processed

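The arrays are Agilent 2-colour slides, and each sample is 1 labelled channel. The deposited intensity is the authors' processed signal per spot, background-subtracted and dye-normalized by Feature Extraction (versions 8.5.1.1, 9.5.1.1, 9.5.3.1 and 10.1.1.1, per the file headers). The deposited value table held the same signals. Here log2 of the deposited signal minus the sample's 75th percentile was fitted with limma 3.58.1 (R 4.3.3, statmod 1.5.0), with segment and dye as terms and slide as a random block (correlation 0.361). Non-uniform and outlier spots were left out, probes had to be well above background in all samples of at least 1 segment, and the brightest probe stood for a gene. P-values were adjusted by Benjamini-Hochberg over all genes tested, 33641 of them, or 33632 in colon and over the 5 segments. Members and gene lists were chosen with earlier results of these data known. Per-sample values are given for members called over the segments or in 1 of the 4 comparisons, in order of role. Of other lists, at most 4 called genes per comparison are named, by the size of the difference, besides defining markers; those named here are a choice among them. Gene names are those of the files, so that Cxcl5, Cxcl4, Cxcl7 and Ccl21b are Cxcl6, Pf4, Ppbp and Ccl21 in RefSeq. Probe coordinates are those of rn4, per the file headers of ileum 2 and 3. Replicate numbers did not pair the samples (median correlation -0.013 over 30 same-numbered pairs). Alternatives covered background correction, scaling, filter, flags, probe choice, dye, array, scan day, replicate block, variance trend and each sample left out. The values of 1 member are not reported here, though counts include it. The number of arrays limits the precision.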

Additional observations from a re-analysis of the deposited data

How the results depend on the processing

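Each result was recomputed under other settings and with each of the 15 samples left out. None of the 36 gene and comparison results called was reversed, 25 kept their call under all settings other than leaving out 1 sample, 27 kept it in every fit that left out 1 sample, and 24 kept it in both. Leaving out 1 sample gave 16 to 24 members called over the 5 segments, 12 to 14 in stomach, 0 to 5 in duodenum, 1 to 3 in ileum, 16 to 22 in colon and 5 to 8 highest in 1 segment. With the replicate number as a block, 0 members were called between duodenum and jejunum, against 3 without it, and 27 over the segments, although the numbers did not pair the samples. The ileum to jejunum count of 2 was 6 with normexp, 1 without an intensity trend, 1 without ileum 2 or ileum 3, and 4 with the samples that had the fewest probes well above background (duodenum 2, jejunum 1 and ileum 1) left out together, an alternative chosen after seeing the data. That alternative gave 29 members over the segments, 16 in stomach, 3 in duodenum, 27 in colon and 9 highest in 1 segment. Among all genes, the 185 called between duodenum and jejunum were 46 without the array block, 40 with the replicate block, 302 without the dye term, 116 without an intensity trend, 82 with the 3 samples left out together, and 28 to 1196 with 1 sample left out. The 1414 called in ileum were 716 with scan day as the block, 706 without an intensity trend, 907 with the replicate block, 698 with the 3 samples left out, and 470 to 3616 with 1 left out. The 9174 called in stomach were 4983 with scan day as the block and 5809 to 10192 with 1 left out, and the 8657 in colon were 13392 without the array block, 15003 with the 3 samples left out and 5930 to 9481 with 1 left out. The causes were not tested. Normexp moved the median of all genes to -0.06 in stomach and 0.33 in colon, against 0.28 and 0.00. The colon call of Cx3cl1 was lost with quantile normalization and with the mean of its probes, and that of Cxcr4 with the mean of its probes. Genes near background, among them Xcl1, Ccl24 and Cxcl14, are limited by signal over background.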

Other observations

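Genes of gut homing and mucosal immunity, which act beside the chemokines, also differed by segment. Of 16 tested, 3 were higher and 2 lower in stomach than in the small bowel, 4 were higher and 4 lower in colon, 1 was higher and 1 lower in ileum than in jejunum, and 1 was lower in duodenum than in jejunum. Il18, an epithelial cytokine, was 4.28-fold higher in colon than in the small bowel (2.10 ± 0.33, adjusted p = 0.000197). Il7, a growth factor of lymphocytes, was 3.26-fold higher there (adjusted p = 0.0193). Itgb7, a subunit of the gut homing integrin, was 4.64-fold lower in stomach (adjusted p = 0.000539) and 3.04-fold lower in colon (adjusted p = 0.0297). Aldh1a1, which makes retinoic acid, was 4.52-fold lower in ileum than in jejunum (-2.18 ± 0.34, adjusted p = 0.00242).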
